A study of Arabidopsis thaliana with 12 samples.

Results

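WRKY proteins are plant transcription factors named for a short peptide in their DNA-binding domain, which folds around a zinc ion and binds the W-box, a DNA element with the core TTGAC. The genes described here are 53 Arabidopsis thaliana WRKY loci taken by their listed locus codes, out of 33331 genes in the count table. RefSeq names 72 genes WRKY, and those outside the list were not analysed here. Many WRKY genes are switched on within minutes to hours of pathogen contact, are themselves targets of other WRKY factors, and act on both sides of the salicylic acid and jasmonic acid branches of defence. Others regulate leaf senescence, phosphate starvation or seed and trichome development. The family is divided by the number of WRKY domains and the form of the zinc finger into groups I, II (IIa to IIe) and III.

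Messenger RNA was counted near its 3′ end in whole shoots of 2-week-old plants, 3 libraries for each of 4 genotypes. The genotypes were aig2abc pad4, a mutant of the neighbouring genes AIG2A, AIG2B and AIG2C together with PAD4, then aig2abc, with PAD4 intact, then pad4, with the AIG2 genes intact, and the wild type Col-0. PAD4, related in sequence to lipases, is a regulator that raises salicylic acid levels in immune responses. All plants were in the same conditions, at 22 °C, 50% humidity and constant light of 100 µmol m-2 s-1, and the labels give no treatment or pathogen, so every level here is that of unchallenged shoots. The series concerns repression of chemical defence by the AIG2 genes, and the pad4 mutation asks how far the response to their loss needs PAD4. The labels do not describe the mutant alleles or say whether replicate libraries stem from different sets of plants. The p-values therefore reflect only library-to-library spread, part or all of which may be technical.

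Total counts per library ran from 584342 to 10697612, and the 3 aig2abc libraries were the shallowest, at 2867679, 584342 and 3005199. AIG2C had 2 to 5 counts in aig2abc pad4 libraries and 0 to 4 in aig2abc libraries, against 346 to 375 in pad4 and 238 to 560 in Col-0. PAD4 stood at 5.1 to 8.14 CPM (CPM is the count relative to the TMM-scaled library total) in aig2abc pad4 and 2.68 to 3.45 CPM in pad4, against 42.5 to 56.7 CPM in aig2abc and 17.1 to 35.2 CPM in Col-0. AIG2A and AIG2B did not show the same loss. AIG2B had 84.5 to 353 CPM in aig2abc pad4 and 575 to 838 CPM in aig2abc, against 579 to 1260 CPM in pad4 and 500 to 963 CPM in Col-0. AIG2A had 209 to 227 CPM in aig2abc pad4 and 77.2 to 109 CPM in aig2abc, against 46.8 to 50.5 CPM in pad4 and 62.6 to 73.2 CPM in Col-0. A 3′ count outside a lesion does not check it, and whether both aig2abc genotypes carry the same alleles is not given in the sources used here. The first axis of differences between replicates, drawn from the other 9 libraries, put the aig2abc libraries at scores of -83.5 to -60.8, against -39.4 to 84 for the rest. The 4 leaf genes checked were present in every genotype, and their summed level was 10400 to 10900 CPM in aig2abc pad4 and 6330 to 7450 CPM in aig2abc, against 12300 to 16200 CPM in pad4 and 11100 to 17400 CPM in Col-0. Of 4 root markers 2, LRX1 and PRP3, were at 0, and nearly all counts were of PYK10. Their summed level was 24.2 to 28.2 CPM in aig2abc pad4 and 12.5 to 23.2 CPM in aig2abc, against 17.5 to 26 CPM in pad4 and 17.5 to 37.6 CPM in Col-0. The 3 flower genes summed to 1.32 to 2.86 CPM in aig2abc pad4 and 4.6 to 7.72 CPM in aig2abc, where AP3 was at 0, against 1.38 to 1.53 CPM in pad4 and 1.2 to 1.78 CPM in Col-0, from 36 to 41 counts per genotype. The 3 seed storage genes had 1 count in all. With shoots taken whole, fewer cells of a type and less RNA per cell cannot be told apart.

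WRKY promoters often carry W-boxes, and the printed windows show where such letters lie upstream of 4 members that were higher in aig2abc than in Col-0. They are the members called higher in either aig2abc comparison with at least 2 matches and no protein-coding gene in the window. Each line gives 250 bases upstream of the annotated start in RefSeq assembly TAIR10.1, 5′ to 3′ on the gene's strand, with TTGACC or TTGACT, on either strand, in capitals. The windows lie at chr5:8154711-8154960 (minus strand) for WRKY30, chr2:16107985-16108234 (plus strand) for WRKY33, chr4:12393983-12394232 (minus strand) for WRKY53 and chr5:352096-352345 (minus strand) for WRKY62.
WRKY30: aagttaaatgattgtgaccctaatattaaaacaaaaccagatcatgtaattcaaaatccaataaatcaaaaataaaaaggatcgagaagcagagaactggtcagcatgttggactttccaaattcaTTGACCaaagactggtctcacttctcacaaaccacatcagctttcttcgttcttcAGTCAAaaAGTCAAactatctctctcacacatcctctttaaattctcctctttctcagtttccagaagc
WRKY33: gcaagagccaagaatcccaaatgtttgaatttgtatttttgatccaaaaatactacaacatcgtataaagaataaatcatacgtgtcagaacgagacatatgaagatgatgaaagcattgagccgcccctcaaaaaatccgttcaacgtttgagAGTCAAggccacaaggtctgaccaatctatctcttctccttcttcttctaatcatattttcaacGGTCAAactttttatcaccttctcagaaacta
WRKY53: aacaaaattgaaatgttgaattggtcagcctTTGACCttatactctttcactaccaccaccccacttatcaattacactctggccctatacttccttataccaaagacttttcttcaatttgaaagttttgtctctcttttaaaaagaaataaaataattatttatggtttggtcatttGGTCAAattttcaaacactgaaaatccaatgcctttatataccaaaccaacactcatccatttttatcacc
WRKY62: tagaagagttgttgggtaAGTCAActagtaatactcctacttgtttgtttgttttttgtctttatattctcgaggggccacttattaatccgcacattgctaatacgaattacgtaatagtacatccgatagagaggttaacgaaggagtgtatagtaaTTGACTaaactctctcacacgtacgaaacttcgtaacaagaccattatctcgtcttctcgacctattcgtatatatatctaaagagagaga
The first base of a match stood 124, 69 and 61 bases before the start in WRKY30, 96 and 32 bases in WRKY33, 219 and 71 bases in WRKY53, and 232 and 91 bases in WRKY62. WRKY30 carries a close pair near the start, and WRKY33 carries both of its matches within the last 100 bases.

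Over the family, 19 of 53 windows (35.8%) held at least 1 match, beside 28.4% of 27443 windows of all protein-coding genes. A pair or more was present in 18.9% of the members' windows, beside 6.18% of all windows. The group III windows held a match in 5 of 9 cases, those of group I in 6 of 11, and those of the IIa genes WRKY18, WRKY40 and WRKY60 in 0 of 3. Of the 10 members called higher in both aig2abc comparisons 5 had a match, and of the 18 called in either comparison 7 did (38.9%), beside 12 of the other 35 members (34.3%). Unlike the printed windows, those counted here may overlap another protein-coding gene. Among the 5 with a match, the windows of WRKY25, WRKY26 and WRKY45 do. The shorter core TTGAC, which each match contains, was in 54.7% of the members' windows and 44.9% of all. A match describes these letters in this window and is not a measured binding site.

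Of the 53 members, 34 had enough counts to be tested (a minimum of about 1.37 CPM in 3 libraries, set over all genes). The other 19 had 0 to 66 counts over the 12 libraries, with WRKY55 at 0. Among those tested, WRKY62 reached the minimum in aig2abc alone and WRKY65 in aig2abc pad4 alone, so a difference was built into their entry. WRKY6 and WRKY30 each reached it in 3 aig2abc and 2 aig2abc pad4 libraries, and in 0 of pad4 or Col-0. The same limit therefore holds for their comparisons with pad4 and Col-0. Of the other members called, WRKY18 and WRKY48 each reached it in 3 aig2abc, 3 aig2abc pad4, 1 pad4 and 0 Col-0 libraries. WRKY51 reached it in 3 aig2abc, 3 aig2abc pad4, 0 pad4 and 2 Col-0 libraries. The pad4 and Col-0 libraries alone would not have admitted them. Rises of these members in the aig2abc genotypes therefore share part of this limit. The summed level of the 53 members was 270 ± 10.1 CPM in aig2abc pad4 and 382 ± 48.6 CPM in aig2abc, against 133 ± 11.8 CPM in pad4 and 180 ± 6.65 CPM in Col-0 (SD, n = 3 each). All aig2abc and aig2abc pad4 libraries, from 263 to 417 CPM, lay above all pad4 and Col-0 libraries, from 119 to 188 CPM.

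Many tested WRKY genes had higher counts relative to the scaled library total where the AIG2 genes were mutated, with PAD4 and without it. With PAD4 intact, 17 of the 34 tested members were higher in aig2abc than in Col-0 and 2 were lower, by edgeR's quasi-likelihood test with a Benjamini-Hochberg adjusted p under 0.05. That comparison called 37.5% of all 15082 genes tested, 18% higher and 19.5% lower. The median log2 change was 1.18 over the tested members and -0.08 over all genes tested. Without WRKY62 and WRKY65, 16 of 32 were higher, 2 were lower and the median was 1.19. That recount keeps WRKY6 and WRKY30, whose entry had a like limit, and WRKY18, WRKY48 and WRKY51, which share part of it. In the pad4 background 11 members were higher in aig2abc pad4 than in pad4 and 0 were lower, where 4% of all genes were called, 3.34% higher and 0.663% lower. No tested member was lower there at an unadjusted p under 0.05 either, and DESeq2 called 0 lower. The median log2 change was 1.02 over the tested members, or 0.95 without WRKY62, which had no pad4 counts, and 0.86 without WRKY62 and WRKY65, and -0.02 over all genes.

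The 2 comparisons share no library, although one estimate of the spread serves both. They called 10 members higher in common, which is 90.9% of the 11 called in the pad4 background and 58.8% of the 17 called with PAD4 intact. The same shares over all genes are not given here, so this overlap is no result particular to the family. These were WRKY25, WRKY26, WRKY33, WRKY40, WRKY45, WRKY46, WRKY50, WRKY51, WRKY53 and WRKY60. WRKY1, WRKY6, WRKY18, WRKY30, WRKY39, WRKY48 and WRKY62 were called with PAD4 intact and not in the pad4 background, and WRKY70 the other way round. For none of these 8 did the difference between the 2 comparisons pass the test of the interaction, with adjusted p from 0.0552 to 0.666 in edgeR's quasi-likelihood test. DESeq2 called that difference for WRKY18 (log2 -1.84, adjusted p = 0.0426). In edgeR it passed for WRKY18 and WRKY1 without pad4 replicate 1 (adjusted p = 0.0396 and 0.045) and for WRKY70 without aig2abc pad4 replicate 3 (adjusted p = 0.0326).

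The aig2abc against Col-0 counts stand beside the differences of depth, replicate axis, leaf gene level and flower gene level given above, and the part of these in the result was not tested. With the axis score as a covariate the comparison called 9 members, all higher, where 9.13% of all genes were called, and 8 of the 9 were among the 19. The aig2abc scores lie outside the range of the rest, so the covariate and the aig2abc genotype cannot be fully told apart. A call lost with the covariate does not separate the axis from the genotype. With the libraries thinned to the smallest total, 7 members could be tested and 5 were called, where 45.7% of the 6303 genes tested were called. The other comparison, between genotypes of like depth, called 15 members with the covariate, where 11.4% of all genes were called. Leaving out pad4 replicate 2 lowered its count to 7.

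**Figure D1:**
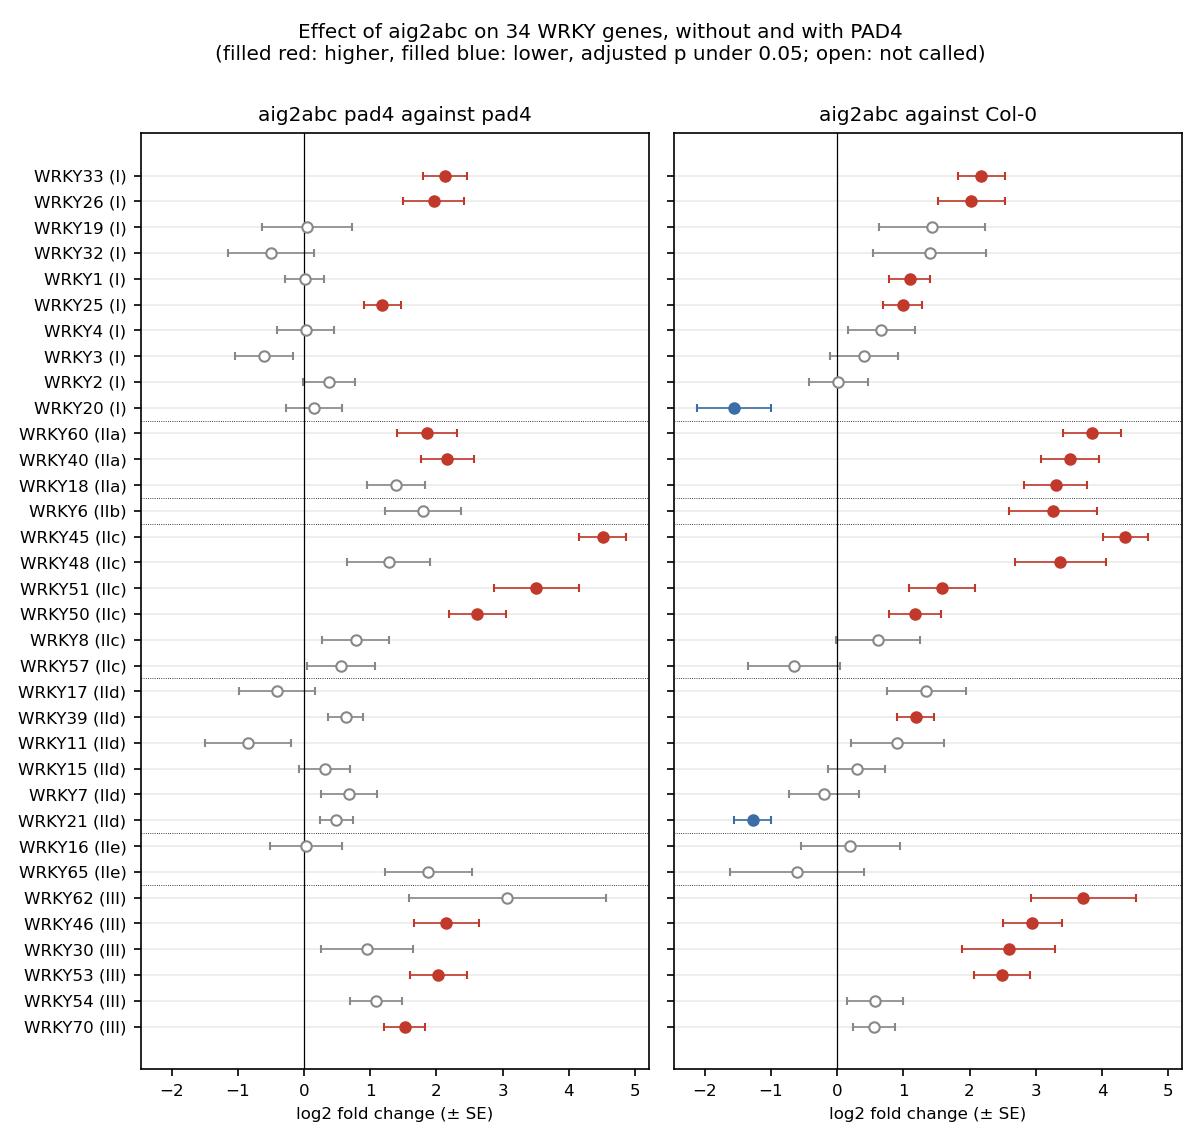
Log2 fold change with its standard error for the 34 tested WRKY genes, by group (in brackets), in aig2abc pad4 against pad4 (left) and in aig2abc against Col-0 (right), from 3 libraries per genotype. Filled points passed an adjusted p of 0.05: 11 higher on the left, and 17 higher and 2 lower on the right, with WRKY45 farthest to the right in both; the WRKY62 point on the left rests on 0 counts in pad4.

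Group I, with a pair of WRKY domains, includes WRKY33 (AT2G38470), which is activated by MAP kinases, is required for resistance to the grey mould Botrytis and drives genes of the antifungal compound camalexin. WRKY33 had 12.8, 6.78 and 8.55 CPM in aig2abc pad4 and 10.8, 11.6 and 12.1 CPM in aig2abc, against 1.82, 2.3 and 2.34 CPM in pad4 and 2.44, 3.37 and 1.9 CPM in Col-0. Every library of the aig2abc genotypes lay above every other library. By edgeR's quasi-likelihood test the log2 change was 2.13 ± 0.33 (SE) in aig2abc pad4 against pad4, adjusted p = 0.000618, and 2.18 ± 0.36 in aig2abc against Col-0, adjusted p = 0.000397. Both calls held in every alternative in which the gene was tested. WRKY33 overlaps 2 annotated loci, AT2G08965 and AT2G38480, and the strand setting of the counting is not given in the sources used here, so reads could be shared.

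WRKY25 (AT2G30250) and WRKY26 (AT5G07100), relatives of WRKY33 that act with it in heat tolerance, were also higher in both comparisons. WRKY26 had 7.02, 6.78 and 11.8 CPM in aig2abc pad4 and 8.53, 0 and 14.4 CPM in aig2abc, against 1.91, 1.95 and 2.69 CPM in pad4 and 2.22, 1.69 and 2.89 CPM in Col-0. The 0 belongs to the shallowest library, and the other libraries of the aig2abc genotypes lay above the rest. The log2 changes of WRKY26 were 1.96 against pad4 and 2.03 against Col-0, and those of WRKY25 were 1.18 and 0.99. The WRKY26 calls were lost without pad4 replicate 1 or 2 in the pad4 background, and without aig2abc replicate 3 or with the axis covariate with PAD4 intact. The WRKY25 call against pad4 was lost without pad4 replicate 1, 2 or 3 and without aig2abc pad4 replicate 1 or 2, with the replicate block and with thinned counts. Its call against Col-0 was lost without aig2abc replicate 1 or 3 and with the covariate.

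WRKY1 (AT2G04880) rose by a log2 change of 1.1 in aig2abc against Col-0 and had 0.01 in aig2abc pad4 against pad4. It overlaps AT2G04890, and its call against Col-0 was lost without Col-0 replicate 1, without aig2abc replicate 1 or 3, and with the covariate. WRKY20 (AT4G26640) had 5.68, 5.58 and 2.96 CPM in aig2abc pad4 and 3.71, 1.93 and 0.657 CPM in aig2abc, against 5.54, 4.48 and 2.81 CPM in pad4 and 8.66, 5.23 and 4.69 CPM in Col-0. It was 1 of the 2 members lower in aig2abc than in Col-0, with no overlap between them, at a log2 change of -1.55 ± 0.56 and adjusted p = 0.0372 in edgeR's quasi-likelihood test. That call was lost without Col-0 replicate 1, without aig2abc replicate 2 or 3, and with the covariate, and the log2 change without a library ran from -2.84 to -0.92. WRKY2 (AT5G56270), WRKY3 (AT2G03340), WRKY4 (AT1G13960), WRKY19 (AT4G12020) and WRKY32 (AT4G30935) passed neither test. Their log2 changes were 0.02 to 1.43 in aig2abc against Col-0 and -0.6 to 0.38 in aig2abc pad4 against pad4.

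The IIa genes WRKY18 (AT4G31800), WRKY40 (AT1G80840) and WRKY60 (AT2G25000) encode proteins that bind each other and act, in part redundantly, as negative regulators of basal defence. All 3 rose in aig2abc. WRKY60 had 3.56, 3.01 and 8.55 CPM in aig2abc pad4 and 32.3, 48.2 and 35.8 CPM in aig2abc, against 1.82, 0.689 and 1.52 CPM in pad4 and 2.33, 3.88 and 1.8 CPM in Col-0. The aig2abc libraries stood far above all others, and the aig2abc pad4 libraries stood above pad4 but overlapped Col-0. The log2 change of WRKY60 was 3.85 ± 0.44 in aig2abc against Col-0, adjusted p = 2e-05, and 1.86 ± 0.45 in aig2abc pad4 against pad4, adjusted p = 0.0228, by edgeR's quasi-likelihood test. The call against Col-0 held in every alternative, and that against pad4 was lost without pad4 replicate 2 or 3, without aig2abc pad4 replicate 3, with only those groups fitted, with the replicate block and with thinned counts.

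WRKY40 had 5.2, 8.89 and 11 CPM in aig2abc pad4 and 14.1, 17.4 and 16.7 CPM in aig2abc, against 1.82, 1.26 and 2.46 CPM in pad4 and 0.666, 2.19 and 1.4 CPM in Col-0. The aig2abc libraries were highest, those of aig2abc pad4 next, and neither overlapped pad4 or Col-0. Its log2 change was 3.52 ± 0.44 in aig2abc against Col-0, adjusted p = 5.1e-05, and 2.16 ± 0.40 in aig2abc pad4 against pad4, adjusted p = 0.00285, by edgeR's quasi-likelihood test, and both calls held in every alternative tested. WRKY40 overlaps AT1G80850. WRKY18 had 4.04, 3.32 and 2.96 CPM in aig2abc pad4 and 5.93, 13.5 and 14.1 CPM in aig2abc, against 0.956, 0.804 and 2.22 CPM in pad4 and 0.999, 1.01 and 1.2 CPM in Col-0. The order of the genotypes was that of WRKY40, again with no overlap between the aig2abc genotypes and the others. The log2 change of WRKY18 was 3.3 ± 0.48 in aig2abc against Col-0, adjusted p = 0.00015, and 1.39 ± 0.44 in aig2abc pad4 against pad4, where it missed the threshold at adjusted p = 0.101 in edgeR's quasi-likelihood test. It passed there with the axis covariate (1.41, adjusted p = 0.0243), with the replicate block (1.89, adjusted p = 0.0418) and without pad4 replicate 3 (1.95, adjusted p = 0.03), in the same edgeR test. WRKY18 would not have passed the filter on pad4 and Col-0 libraries alone, so neither comparison is a fully independent test of a rise.

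**Figure D2:**
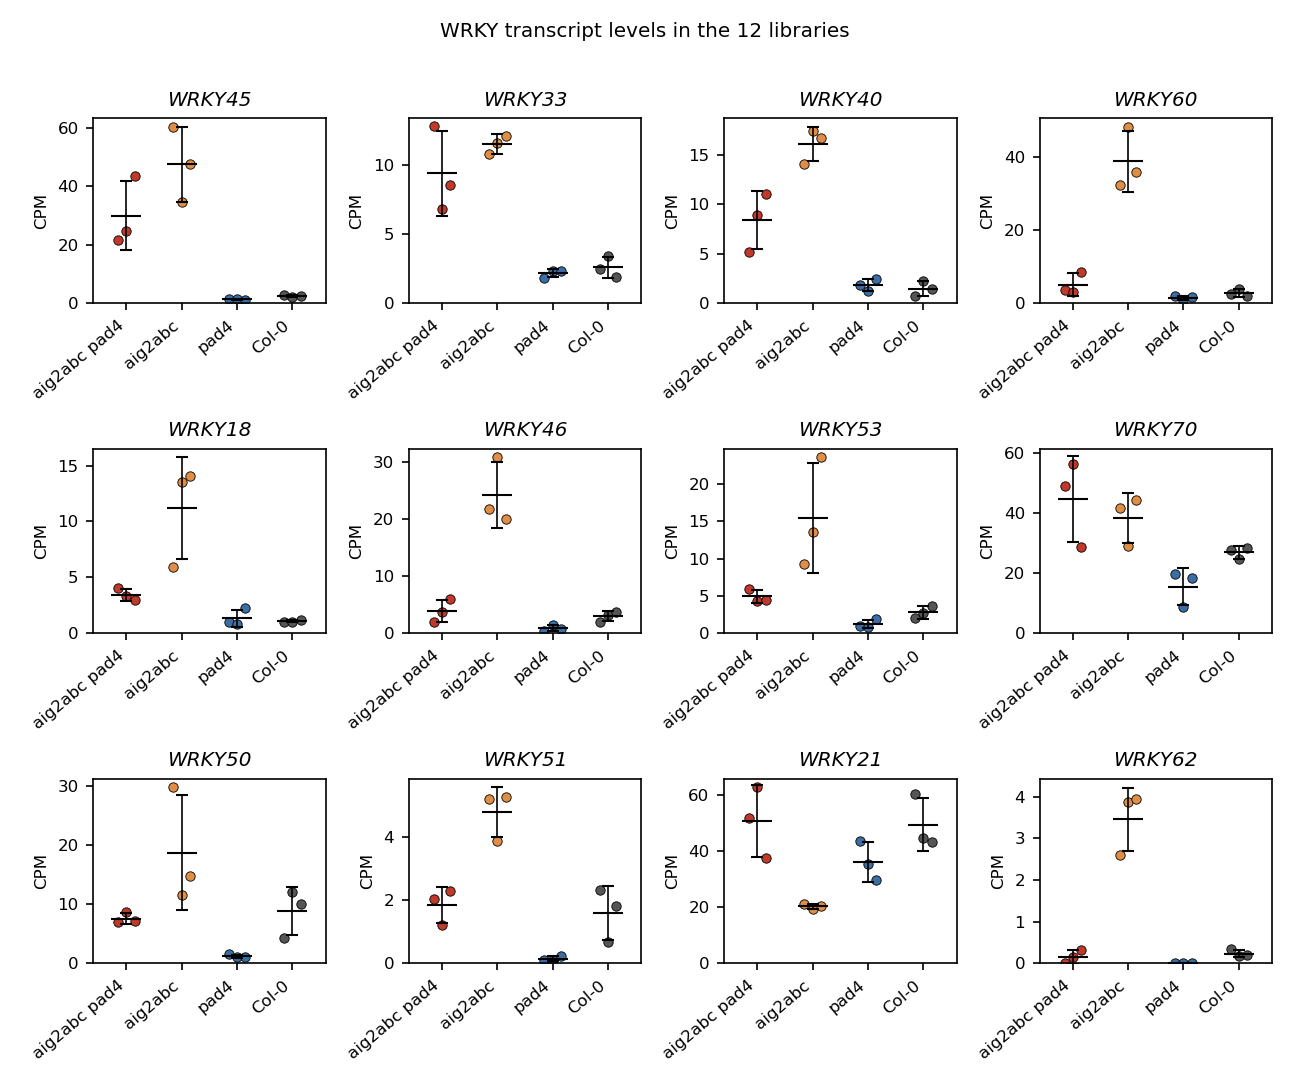
Level in CPM (vertical axis, linear, from 0) of 12 WRKY genes in each library, with genotypes from left to right aig2abc pad4, aig2abc, pad4 and Col-0. Points are libraries, and horizontal and vertical lines are the mean and SD of 3; WRKY45 and WRKY33 are high in both aig2abc genotypes, WRKY60 and WRKY46 mainly in aig2abc, WRKY50 and WRKY51 lowest in pad4, and WRKY21 lowest in aig2abc.

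WRKY6 (AT1G62300), a group IIb regulator of senescence and phosphate transport, was the tested member of its subgroup. It had 1.92, 2.11 and 1.32 CPM in aig2abc pad4 and 2.22, 1.93 and 4.6 CPM in aig2abc, against 0.669, 0.23 and 0.585 CPM in pad4 and 0.111, 0.337 and 0.499 CPM in Col-0. The aig2abc genotypes overlapped each other and neither pad4 nor Col-0. Its log2 change was 3.26 in aig2abc against Col-0, which passed in every alternative tested, and 1.8 in aig2abc pad4 against pad4, which did not pass (adjusted p = 0.098 in edgeR's quasi-likelihood test) but passed at 1.78 with the axis covariate (adjusted p = 0.0381). WRKY6 passed the filter only through libraries of the aig2abc genotypes, so neither comparison is an independent test of a rise.

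Group IIc held the member with the largest called change in both comparisons. WRKY45 (AT3G01970), which activates a phosphate transporter gene and promotes leaf senescence, had 21.7, 24.7 and 43.6 CPM in aig2abc pad4 and 60.4, 34.7 and 47.6 CPM in aig2abc, against 1.34, 1.38 and 1.17 CPM in pad4 and 2.78, 2.02 and 2.3 CPM in Col-0. The aig2abc genotypes overlapped each other and lay far above pad4 and Col-0, which did not overlap. The log2 change was 4.51 ± 0.35 in aig2abc pad4 against pad4, adjusted p = 1.82e-07, and 4.35 ± 0.34 in aig2abc against Col-0, adjusted p = 5.3e-07, by edgeR's quasi-likelihood test. Leaving out any library kept it between 4.14 and 4.71 in the pad4 background and between 4.06 and 4.49 with PAD4 intact.

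WRKY50 (AT5G26170) and WRKY51 (AT5G64810) act together where salicylic acid represses jasmonic acid responses. WRKY50 had 7.02, 8.59 and 7.07 CPM in aig2abc pad4 and 29.7, 11.6 and 14.8 CPM in aig2abc, against 1.53, 1.03 and 1.05 CPM in pad4 and 4.33, 12.1 and 10.1 CPM in Col-0. The pad4 libraries were the lowest and overlapped none of the others, while aig2abc overlapped Col-0. The log2 change was 2.62 ± 0.43 in aig2abc pad4 against pad4, adjusted p = 0.00096, and 1.18 in aig2abc against Col-0, which was lost without Col-0 replicate 1 or aig2abc replicate 1 and with the covariate, in edgeR's quasi-likelihood test.

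WRKY51 had 2.02, 1.21 and 2.3 CPM in aig2abc pad4 and 5.19, 3.86 and 5.25 CPM in aig2abc, against 0.0956, 0.115 and 0.234 CPM in pad4 and 2.33, 0.675 and 1.8 CPM in Col-0. The pad4 libraries were the lowest, aig2abc lay above Col-0, and aig2abc pad4 overlapped Col-0. The pad4 values rest on 4 counts in all, and those of aig2abc pad4 on 43, a ratio of 12.9 (95% counting interval 4.69 to 49.4). The log2 change was 3.51 ± 0.64 in aig2abc pad4 against pad4, adjusted p = 0.00228 in edgeR's quasi-likelihood test, and 1.59 in aig2abc against Col-0. The call against Col-0 was lost without Col-0 replicate 2, without aig2abc replicate 1 or 3, and with the covariate. WRKY48 (AT5G49520), a negative regulator of basal resistance to bacteria, had a log2 change of 3.37 in aig2abc against Col-0, lost with the covariate, and 1.28 in aig2abc pad4 against pad4, which did not pass. Without pad4 replicate 3 the change against pad4 was 2.64 (adjusted p = 0.034 in edgeR's quasi-likelihood test), and with the replicate block it was 2.41 (adjusted p = 0.0478). WRKY48 and WRKY51 would not have passed the filter on pad4 and Col-0 libraries alone. Their comparisons of aig2abc genotypes with pad4 or Col-0 are thus not fully independent tests. WRKY8 (AT5G46350) and WRKY57 (AT1G69310) passed neither test.

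Group IId proteins bind calmodulin and include the second member that fell in aig2abc. WRKY21 (AT2G30590) had 51.6, 62.8 and 37.3 CPM in aig2abc pad4 and 21.1, 19.3 and 20.4 CPM in aig2abc, against 43.4, 35.3 and 29.5 CPM in pad4 and 60.3, 44.5 and 43.1 CPM in Col-0. The aig2abc libraries were the lowest, with no overlap with any other genotype. Its log2 change was -1.27 ± 0.28 in aig2abc against Col-0, adjusted p = 0.00238, and 0.49 ± 0.25 in aig2abc pad4 against pad4, adjusted p = 0.414, by edgeR's quasi-likelihood test. The call against Col-0 was lost with the axis covariate and held without any one library. WRKY39 (AT3G04670), a regulator of the heat response, had a log2 change of 1.19 in aig2abc against Col-0, lost without aig2abc replicate 1, with thinned counts and with the covariate, and 0.63 in aig2abc pad4 against pad4, which did not pass.

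WRKY11 (AT4G31550) and WRKY17 (AT2G24570), negative regulators of basal resistance, and WRKY7 (AT4G24240) and WRKY15 (AT2G23320) passed neither test. Their log2 changes were -0.2 to 1.35 in aig2abc against Col-0 and -0.85 to 0.68 in aig2abc pad4 against pad4. Both tested IIe genes, WRKY16 (AT5G45050) and WRKY65 (AT1G29280), passed neither test: 0 of these 2 passed at an unadjusted p under 0.05 in aig2abc against Col-0 and 1 did in aig2abc pad4 against pad4, with 0 by DESeq2 in both. WRKY65 stood at a log2 change of 1.88 in aig2abc pad4 against pad4, which did not pass, and at 1.81 with the covariate, which did. It passed the filter through aig2abc pad4 alone, so this comparison is no independent test and its p is not given.

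Group III, with a different zinc finger, holds regulators that respond to salicylic acid. WRKY46 (AT2G46400) and WRKY53 (AT4G23810) act in basal resistance, and WRKY53 is also a promoter of leaf senescence. WRKY46 had 2.02, 3.77 and 5.92 CPM in aig2abc pad4 and 21.9, 30.9 and 20 CPM in aig2abc, against 0.382, 1.38 and 0.819 CPM in pad4 and 2, 3.2 and 3.79 CPM in Col-0. The aig2abc libraries were the highest, pad4 the lowest, and aig2abc pad4 and Col-0 overlapped. Its log2 change was 2.95 ± 0.44 in aig2abc against Col-0, adjusted p = 0.00019, which held in every alternative, and 2.15 ± 0.49 in aig2abc pad4 against pad4, adjusted p = 0.0147, by edgeR's quasi-likelihood test. The call against pad4 was lost without pad4 replicate 1 or 3, with only those groups fitted and with thinned counts.

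WRKY53 had 5.97, 4.37 and 4.44 CPM in aig2abc pad4 and 9.27, 13.5 and 23.6 CPM in aig2abc, against 0.956, 0.804 and 1.87 CPM in pad4 and 2, 2.7 and 3.69 CPM in Col-0. The 4 genotypes did not overlap, and stood in the order aig2abc, aig2abc pad4, Col-0 and pad4. The log2 change was 2.03 ± 0.43 in aig2abc pad4 against pad4, adjusted p = 0.00917, and 2.49 ± 0.42 in aig2abc against Col-0, adjusted p = 0.000439, by edgeR's quasi-likelihood test. The call against pad4 was lost without pad4 replicate 2, and that against Col-0 held in every alternative tested. WRKY53 overlaps AT4G23800.

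WRKY62 (AT5G01900), which dampens jasmonic acid responses and basal defence downstream of salicylic acid, was counted mainly in aig2abc. It had 0, 0.151 and 0.329 CPM in aig2abc pad4 and 2.6, 3.86 and 3.94 CPM in aig2abc, against 0, 0 and 0 CPM in pad4 and 0.333, 0.169 and 0.2 CPM in Col-0. These are 3, 21, 0 and 6 counts over the 3 libraries of each genotype. The aig2abc libraries overlapped no other genotype, and the ratio of aig2abc to Col-0 was 13.9 (95% counting interval 5.45 to 42.2). It passed the filter through aig2abc alone, so its call against Col-0 is no independent test and its p is not given; the call was lost with the covariate. Between aig2abc pad4 and pad4 no fold is given, since both were at or under the floor of 3 counts over a genotype.

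WRKY30 (AT5G24110), active in oxidative stress and senescence, had 0.385, 1.51 and 1.48 CPM in aig2abc pad4 and 4.45, 3.86 and 3.94 CPM in aig2abc, against 0.478, 0.345 and 0.819 CPM in pad4 and 0.111, 0.675 and 1.2 CPM in Col-0. Its aig2abc libraries lay above all others, and its log2 change of 2.59 against Col-0 was lost with the covariate. WRKY30 passed the filter only through libraries of the aig2abc genotypes, so this call is no independent test. WRKY70 (AT3G56400), a node that promotes salicylic acid and represses jasmonic acid responses, had 48.8, 56.2 and 28.6 CPM in aig2abc pad4 and 41.5, 28.9 and 44.3 CPM in aig2abc, against 19.6, 8.62 and 18.4 CPM in pad4 and 27.6, 24.5 and 28.3 CPM in Col-0. The pad4 libraries were the lowest and both aig2abc genotypes lay above Col-0 in every library. WRKY70 was higher in aig2abc pad4 than in pad4 by a log2 change of 1.52, a call lost without aig2abc pad4 replicate 2, with only those groups fitted and with thinned counts. In aig2abc against Col-0 it had 0.56, which did not pass, but it passed at 1.18 with the covariate. WRKY54 (AT2G40750), the closest relative of WRKY70, had log2 changes of 1.09 and 0.57 in the same order, which did not pass, although it was called in aig2abc pad4 against pad4 by DESeq2 (adjusted p = 0.0398), with the covariate (adjusted p = 0.0137) and without aig2abc replicate 2 (adjusted p = 0.0316). That library, the shallowest, had 0 counts of WRKY54. Without it WRKY54 was also called in aig2abc against Col-0, at 0.84 (adjusted p = 0.0487 in edgeR's quasi-likelihood test).

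Few members were called for loss of PAD4 alone. In pad4 against Col-0, 2 of the 34 tested members were lower, WRKY50 and WRKY51, where 0.69% of all genes were called, 0.683% lower and 0.00663% higher. No member was higher, with 0 at an unadjusted p under 0.05 and 0 by DESeq2. WRKY50 fell by 2.83 ± 0.43 on the log2 scale (adjusted p = 0.00138), a call that held in every alternative tested, by edgeR's quasi-likelihood test. WRKY51 fell by 3.35 ± 0.64 (adjusted p = 0.0116) in the same test, from 4 counts in pad4 and 43 in Col-0, a ratio of 0.0838 (95% counting interval 0.0218 to 0.23). The WRKY51 call was lost without Col-0 replicate 1 or 3 and without pad4 replicate 1 or 2. Of the group III genes 0 were called and 4 were lower at an unadjusted p under 0.05. So were WRKY25 (log2 change -0.69) and WRKY45 (-0.87), which were not called either. WRKY46 was called lower by DESeq2 (log2 change -1.84, adjusted p = 0.0314), and by edgeR with the covariate (adjusted p = 0.00191) and without a filter (adjusted p = 0.0309). WRKY62 had 0 counts in pad4 and 6 in Col-0. By the floor of 3 counts over a genotype it was 2.22-fold lower, with no error allowed on the 6 counts.

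In the aig2abc background, 10 of the 34 tested members were lower in aig2abc pad4 than in aig2abc and 1 was higher, or 9 and 1 of 32 without WRKY62 and WRKY65, where 24.3% of all genes were called, 11.5% lower and 12.8% higher. By group, 1 of 10 tested I genes, 2 of 3 IIa, 2 of 6 IIc, 1 of 6 IId and 4 of 6 III genes were lower. This comparison shares libraries with those above and contains the shallow aig2abc libraries. WRKY60 had the smallest p, with a log2 change of -2.92 ± 0.42 and adjusted p = 0.00117 in edgeR's quasi-likelihood test, and was the one call that held in every alternative. WRKY46 followed at -2.6 ± 0.43 (adjusted p = 0.00192) and WRKY53 at -1.68 ± 0.40 (adjusted p = 0.009), and both were lost with the covariate. WRKY53 was also lost without aig2abc replicate 3 or aig2abc pad4 replicate 2. WRKY62 had 3 counts in aig2abc pad4 and 21 in aig2abc, a ratio of 0.0387 (95% counting interval 0.00739 to 0.13). Its call here is likewise no independent test, and was lost with DESeq2 and with the covariate.

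The other members lower in aig2abc pad4 than in aig2abc were WRKY1, WRKY18, WRKY30, WRKY39, WRKY50 and WRKY51, with log2 changes of -0.83 to -1.93. Each of these 6 calls was lost with the covariate and in 2 to 9 of the 12 fits that left out a library. The member that was higher was WRKY21, by 1.31 ± 0.28 (adjusted p = 0.00506 in edgeR's quasi-likelihood test), which was lost with the covariate. WRKY33, WRKY26 and WRKY45 had log2 changes of -0.28, -0.15 and -0.71 and did not pass. WRKY45 had an adjusted p of 0.078 in edgeR's quasi-likelihood test. It passed at -1.07 without aig2abc pad4 replicate 3 (adjusted p = 0.00621 in the same test). With the axis covariate 1 member was called, WRKY60, and without aig2abc pad4 replicate 2 the count was 4. It was 7, 8 and 6 without aig2abc replicates 1, 2 and 3, 6 without aig2abc pad4 replicate 1, and 14 without aig2abc pad4 replicate 3.

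**Figure D3:**
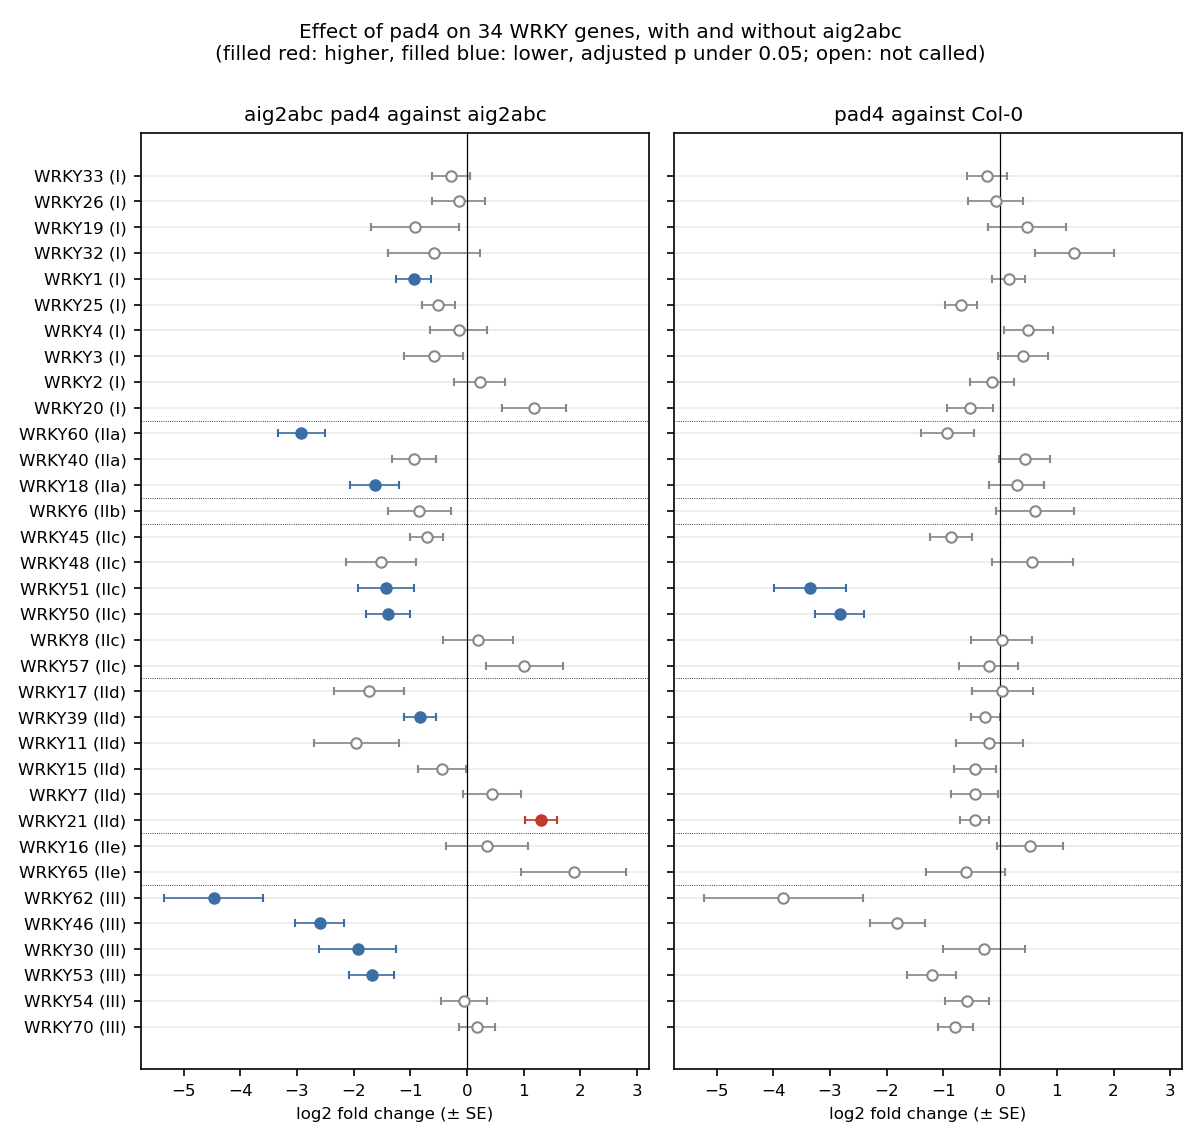
Log2 fold change with its standard error for the 34 tested WRKY genes, by group (in brackets), in aig2abc pad4 against aig2abc (left) and in pad4 against Col-0 (right), from 3 libraries per genotype. Filled points passed an adjusted p of 0.05: 10 lower and 1 higher (WRKY21) on the left, and WRKY50 and WRKY51, both lower, on the right; the WRKY62 point on the right rests on 0 counts in pad4.

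The interaction asks whether the effect of aig2abc differs between the pad4 background and plants with PAD4. It was called for 2 of the 34 tested members, where 14.8% of all genes were called, 8.53% higher and 6.23% lower. For WRKY21 the difference was 1.76 ± 0.37 on the log2 scale (adjusted p = 0.014 in edgeR's quasi-likelihood test): it was 0.49 in aig2abc pad4 against pad4 and -1.27 in aig2abc against Col-0. For WRKY60 it was -1.99 ± 0.63 (adjusted p = 0.0439 in the same edgeR test), from a rise of 1.86 in aig2abc pad4 against pad4 and of 3.85 in aig2abc against Col-0. The WRKY21 call was lost with the covariate and held without any one library. The WRKY60 call was lost in 9 of the 12 fits that left out a library, all but those without Col-0 replicate 2, pad4 replicate 2 or aig2abc pad4 replicate 3, and with the covariate, the replicate block and thinned counts. WRKY33, WRKY40 and WRKY45, whose rises in both aig2abc comparisons held in every alternative tested, had interaction values of -0.05 ± 0.50, -1.36 ± 0.59 and 0.16 ± 0.45. None of these passed, and that of WRKY40 had an adjusted p of 0.118 in edgeR's quasi-likelihood test.

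Among members called in none of the 5 comparisons, those with the highest CPM in Col-0 were WRKY54, WRKY2, WRKY15 and WRKY3. WRKY2, which acts in the abscisic acid control of germination, had 4.81, 5.12 and 8.88 CPM in aig2abc pad4 and 5.56, 0 and 6.89 CPM in aig2abc, against 4.11, 5.86 and 4.33 CPM in pad4 and 5.55, 6.07 and 4.19 CPM in Col-0. Its genotypes overlapped, and the 0 is that of the shallowest library. WRKY15, linked to oxidative and salt stress, and WRKY3, which acts in resistance to a fungus that kills its host, had log2 changes of -0.6 to 0.41 in the comparisons of aig2abc pad4 with pad4 and aig2abc with Col-0. Their standard errors were 0.38 to 0.51 on the log2 scale, and a change of 1.09 ± 0.39 in WRKY54 was not called, so moderate changes in such genes could be missed at this depth.

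Of the 19 members below the minimum, WRKY75 (AT5G13080) was counted in both aig2abc genotypes and in no pad4 or Col-0 library. WRKY75, which acts in phosphate starvation and senescence, had 0.385, 1.05 and 0.329 CPM in aig2abc pad4 and 2.22, 0 and 2.3 CPM in aig2abc, against 0 CPM in all pad4 and Col-0 libraries. It had 13 counts in each of the aig2abc genotypes. Set against the floor of 3 counts over a genotype, it was 5.2-fold higher in aig2abc pad4 than in pad4. In aig2abc it was 17.3-fold higher than in Col-0 by that floor. These folds allow no error on the 13 counts, so they are not strict lower bounds. A count of 0 allows up to 0.108 CPM in pad4 and 0.12 CPM in Col-0, for counting error only. WRKY22 (AT4G01250) and WRKY29 (AT4G23550), which act downstream of MAP kinases in flagellin sensing, were scarce: WRKY22 had 20 counts in aig2abc pad4 and 0 in aig2abc, against 26 in pad4 and 20 in Col-0, and WRKY29 had 1 count in all. The remaining members of this set include WRKY38 (AT5G22570), WRKY44 (TTG2, of trichomes), WRKY12 (AT2G44745) and WRKY13 (of stems) and WRKY23 (of roots), with too few counts for a comparison. WRKY14 (AT1G30650), WRKY27 (AT5G52830), WRKY28 (AT4G18170), WRKY31 (AT4G22070), WRKY35 (AT2G34830), WRKY41 (AT4G11070), WRKY42 (AT4G04450), WRKY47 (AT4G01720), WRKY69 (AT3G58710) and WRKY74 (AT5G28650) make up the rest with WRKY55 (AT2G40740), at 3 to 42 counts each over the 12 libraries apart from WRKY55.

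Genes that act beside the WRKY factors were followed in 3 lists: 9 reported WRKY33 targets, 11 MAP kinase cascade genes and 29 VQ proteins, a family that binds WRKY factors. Of the WRKY33 targets 5 were tested, and 4 were higher in aig2abc pad4 than in pad4 and 3 in aig2abc than in Col-0, beside 3.34% and 18% higher among all genes tested. CYP71A13 and PAD3, enzymes of camalexin synthesis, led in both. PAD3 had 113, 101 and 46 counts in aig2abc pad4 and 22, 4 and 27 in aig2abc, against 0, 0 and 2 in pad4 and 7, 2 and 8 in Col-0. CYP71A13 had 612, 423 and 425 counts in aig2abc pad4 and 251, 49 and 223 in the shallower aig2abc libraries, against 2, 7 and 7 in pad4 and 11, 15 and 30 in Col-0. The log2 change of CYP71A13 was 6.73 ± 0.42 in aig2abc pad4 against pad4 (adjusted p = 1.48e-08) and 5.26 ± 0.37 in aig2abc against Col-0 (adjusted p = 1.56e-07) by edgeR's quasi-likelihood test.

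The ratio of PAD3 counts per scaled total was 156 (95% counting interval 42.7 to 1290) in aig2abc pad4 over pad4, resting on 2 counts in pad4, and 12.4 (7.08 to 22.9) in aig2abc over Col-0. AT1G26380 and CYP71A12 were the other targets called in the pad4 background, at log2 changes of 4.93 and 4.31. In aig2abc against Col-0 AT1G26380 had 2.98, which passed, and CYP71A12 had 0.17, which did not. CYP71A12 and CYP71A13 are near copies that can share reads. The median log2 change of the 5 tested targets was 4.93 in aig2abc pad4 against pad4 and 2.98 in aig2abc against Col-0. The interaction was called for PAD3 (3.34, adjusted p = 0.0282) and CYP71A12 (4.14, adjusted p = 0.0271) by edgeR's quasi-likelihood test, and for neither with the covariate or without any one of the aig2abc libraries, pad4 replicate 2, or aig2abc pad4 replicate 1 or 2. It was called for 1 target without pad4 replicate 3.

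**Figure D4:**
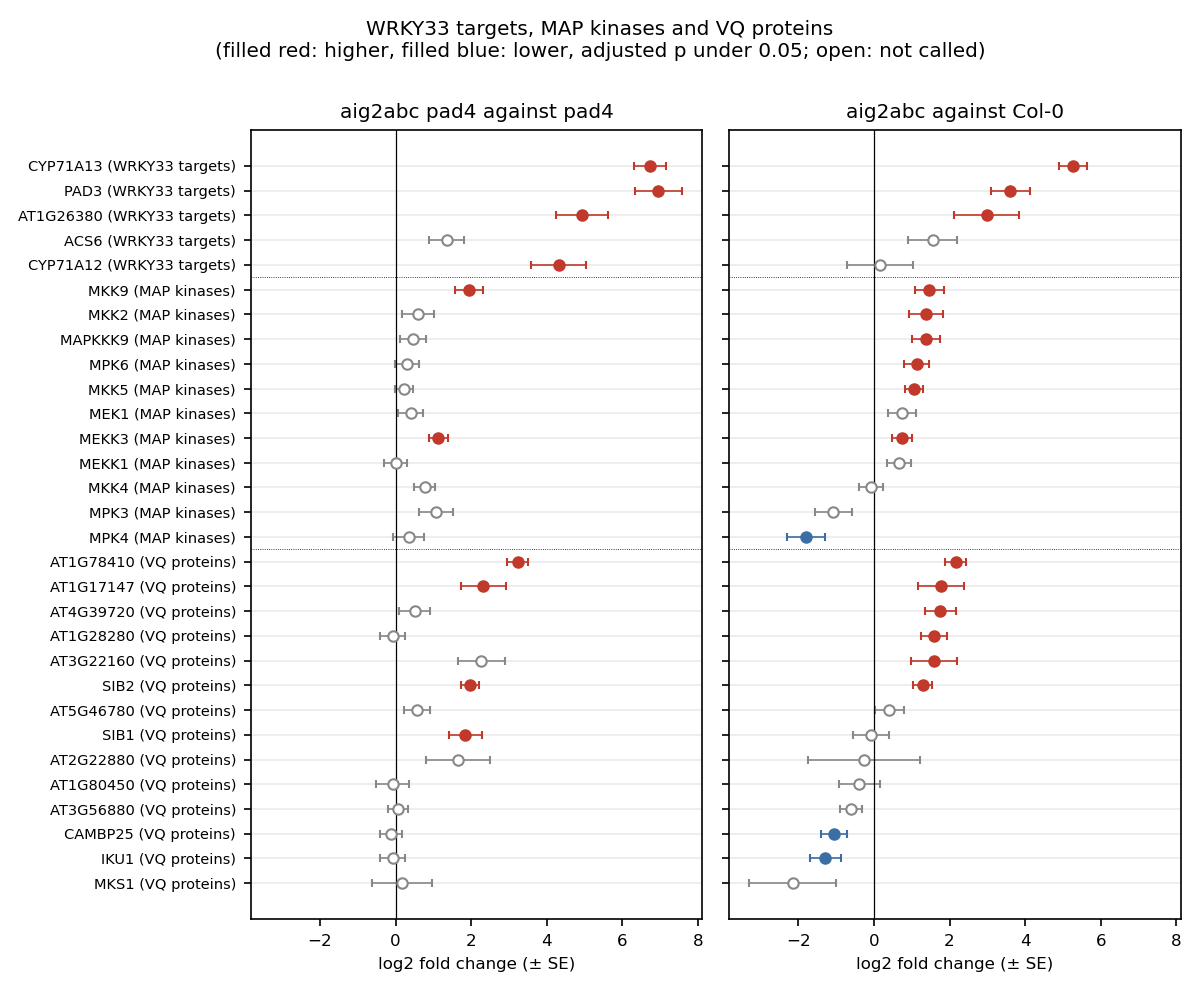
Log2 fold change with its standard error of the tested WRKY33 targets, MAP kinase cascade genes and VQ protein genes, in aig2abc pad4 against pad4 and in aig2abc against Col-0, from 3 libraries per genotype. Filled points passed an adjusted p of 0.05: the camalexin genes CYP71A13 and PAD3 lie farthest to the right, and the MAP kinase genes lie between log2 changes of -1.79 and 1.95.

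The MAP kinase cascade phosphorylates WRKY33 and other members. Of its 11 genes, all tested, 2 were higher in aig2abc pad4 than in pad4, MKK9 (log2 change 1.95 ± 0.37) and MEKK3 (1.13 ± 0.25), beside 3.34% higher among all genes. In aig2abc against Col-0 6 were higher and 1 lower, beside 18% higher and 19.5% lower among all genes, with MKK5 at 1.07, MAPKKK9 at 1.38 and MKK9 at 1.47, and MPK4 at -1.79. With the axis covariate 0 of the 11 were called by edgeR, with 4 at an unadjusted p under 0.05; without aig2abc replicate 1 the count was 4, and without aig2abc replicate 3 it was 3. The median log2 change was 0.47 in aig2abc pad4 against pad4 and 0.75 in aig2abc against Col-0. The count against pad4 was 1 without pad4 replicate 3. MEKK1, MAPKKK9 and MEKK3 are neighbouring near copies that can share reads.

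Of the 29 VQ genes 14 were tested, and 4 were higher in aig2abc pad4 than in pad4, beside 3.34% higher among all genes. These were AT1G78410 (log2 change 3.23), SIB2 (1.96), SIB1 (1.84) and AT1G17147 (2.32). SIB1 and SIB2 bind WRKY33 and stimulate its activity. The count against pad4 was 2 without pad4 replicate 2 and without aig2abc pad4 replicate 1 or 2. In aig2abc against Col-0 6 were higher and 2 lower, beside 18% higher and 19.5% lower among all genes, with AT1G78410 at 2.16, SIB2 at 1.29, AT1G28280 at 1.59 and AT4G39720 at 1.76 above Col-0, and IKU1, a regulator of seed size, at -1.29 and CAMBP25 at -1.06. SIB1 had -0.07 there and did not pass. That count was 2 with the covariate and 4 to 5 without one of aig2abc replicates 1, 2 and 3 or Col-0 replicate 2. The median log2 change of the tested VQ genes was 0.54 in aig2abc pad4 against pad4 and 0.17 in aig2abc against Col-0.

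Loss of PAD4 alone called few of these genes. In pad4 against Col-0 1 VQ gene was lower, AT1G78410 (log2 change -1.42), a call lost without Col-0 replicate 2 or 3 and without any one pad4 library. No WRKY33 target was called by edgeR, although 3 of the 5 were lower at an unadjusted p under 0.05 and DESeq2 called 1. No MAP kinase gene was called, with 2 lower at an unadjusted p under 0.05 and 0 by DESeq2.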

How the data were processed

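The authors deposited raw read counts, whole numbers for every gene and library, as the column values show. STAR, edgeR and TAIR10 are named, without versions, in the submitters' processing notes. Nothing on alignment settings, annotation or strand setting was found in the sources used here, and reads of overlapping or near-identical genes may be shared or dropped. Libraries were grouped by the labels. One pad4 column has a number, 3, found in none of the pad4 titles. It entered the pad4 group unnumbered and is called pad4 replicate 3. Within every genotype the libraries differed beyond sampling error (chi-square per gene 3.39 to 57.7), so each library counted on its own.

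Genes passing filterByExpr (15082 of 33331; 11272 had 0 counts throughout) were scaled by TMM and tested in a fit of 4 group means over all 12 libraries with the robust quasi-likelihood F-test of edgeR 4.0.16 in R 4.3.3, two-sided, Benjamini-Hochberg adjusted over all genes, at a threshold of 0.05. The standard error is the absolute log2 change divided by the square root of F. The fit was tested on simulated counts with known changes. Ratios of summed counts carry exact 95% intervals for counting error only. Names and promoter windows were matched by locus code to RefSeq TAIR10.1, and no coordinate was carried between builds.

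The members and lists were chosen with earlier results of these data known. The 4 members with the smallest p per comparison and direction, and those called in the interaction, are given in full. Per-library values of WRKY2, WRKY6, WRKY26, WRKY30, WRKY70 and WRKY75, the remarks on untested members, and the leaf, root and flower genes named were chosen after their values were seen. Alternatives were RLE size factors, DESeq2 1.42.0, no filter, at least 1 CPM in 3 libraries, fits of the compared groups alone, a replicate block (which drops pad4 replicate 3), the replicate-axis score as a covariate, thinning to the smallest total, and leaving out each library. Motif searches in proteins were not run.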

Additional observations from a re-analysis of the deposited data

Results flagged for a closer look

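WRKY21 and WRKY60 are given here because the effect of aig2abc differed between the pad4 background and plants with PAD4, by a test of that difference itself (edgeR's quasi-likelihood test of the interaction). For WRKY21 the difference was 1.76 ± 0.37 on the log2 scale (adjusted p = 0.014), and the level was lowest in all 3 aig2abc libraries, at 19.3 to 21.1 CPM, against 29.5 to 62.8 CPM in all other libraries. For WRKY60 it was -1.99 ± 0.63 (adjusted p = 0.0439), with 32.3 to 48.2 CPM in aig2abc and 0.689 to 8.55 CPM in all other libraries. Both rest on the shallow aig2abc libraries, which also stand together on the replicate axis, at scores of -83.5 to -60.8. The part of either in these differences was not tested. With the axis score as a covariate the difference was 1 for WRKY21 (adjusted p = 0.213) and -1.17 for WRKY60 (adjusted p = 0.499).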

How the results depend on the processing

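No log2 change of a called member changed sign under any alternative. Of the calls, 8 of 19 in aig2abc against Col-0 held in every alternative in which the member was tested (WRKY6, WRKY18, WRKY33, WRKY40, WRKY45, WRKY46, WRKY53 and WRKY60), as did 5 of 11 in aig2abc pad4 against pad4 (WRKY33, WRKY40, WRKY45, WRKY50 and WRKY51), 1 of 2 in pad4 against Col-0, 1 of 11 in aig2abc pad4 against aig2abc and 0 of 2 in the interaction. Among these, WRKY6 passed the filter only through libraries of the aig2abc genotypes, and WRKY18 and WRKY51 would not have passed on pad4 and Col-0 libraries alone. With the axis covariate the numbers called were 9, 15, 3, 1 and 0 in that order, beside 9.13, 11.4, 1.59, 2.15 and 0.57% of all genes, and with thinned counts, where only 7 members could be tested, 5, 1, 0, 3 and 1, beside 45.7, 3.2, 0.397, 35 and 20.1% of all genes tested. At an unadjusted p under 0.05 edgeR gave 4 for the interaction with the covariate and 1 for pad4 against Col-0 with thinned counts. DESeq2, run on all counts, called 3 in each of these 2 comparisons. Fitting only the groups compared gave 1 in pad4 against Col-0 in place of 2. Leaving out 1 library gave 15 to 21, 7 to 12, 1 to 2, 4 to 14 and 1 to 4. RLE size factors, DESeq2, no filter and the filter at 1 CPM gave 19 to 23, 11 to 12, 2 to 3, 9 to 11 and 2 to 3. The cause of these shifts was not tested, other than that thinning left fewer members to test.

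With the replicate number as a block the numbers called were 20, 11, 2, 12 and 1, and WRKY60 was the interaction call that was lost. In aig2abc pad4 against pad4 WRKY25 and WRKY60 were lost and WRKY18 and WRKY48 gained, and in aig2abc pad4 against aig2abc WRKY51 was lost and WRKY40 and WRKY48 gained. The labels do not say what a replicate number marks. The deviations of same-numbered libraries correlated at -0.27 to 0.55 over 15 pairs, and 5 of 11 libraries correlated best with their own number, so the numbers were not taken to pair the samples.

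Depth limits the 19 untested members and every aig2abc level: a count of 0 allows up to 0.479 CPM over the aig2abc libraries, against 0.108 to 0.13 CPM in the other genotypes.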

Other observations

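Without a filter on low counts, 3 further members were called higher in aig2abc than in Col-0 by edgeR's quasi-likelihood test: WRKY75 (adjusted p = 0.000169), WRKY47 (adjusted p = 0.0245) and WRKY28 (adjusted p = 0.0498). WRKY47 had 8 counts over the aig2abc libraries and 2 over those of Col-0, a ratio per scaled total of 15.9 (95% counting interval 3.18 to 154). WRKY28 had 7 and 2 counts, a ratio of 13.9 (2.66 to 138). WRKY22 was called lower there (adjusted p = 0.0471), with 0 counts in aig2abc and 20 in Col-0. By the floor of 3 counts it was 1.67-fold lower, with no error allowed on the 20 counts. These are values from few counts and are given without an explanation.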
